A study of Homo sapiens with 9 samples.

Results

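The actin cytoskeleton and contractile genes are 40 genes of the 60675 in the count table. They were picked by symbol: 3 actins, 6 genes that bind actin in contractile cells, 6 myosin chains, 4 tropomyosins, 5 filament crosslinkers, 7 focal adhesion genes, 7 genes of filament turnover and 2 regulators. All 40 were found by their Ensembl identifier, and all 40 passed the filter on low counts. They were measured by RNA-seq in SW1783, an established human astrocytoma line, after 24 h of treatment. The treated cells received a 70% ethanol extract of Poria Cocos, a fungus, at 20, 100 or 500 µg/mL, or of Atractylodis Rhizoma, a plant rhizome, at the same doses. Each extract and dose has 1 library, labelled replicate 2. The vehicle cells received DMSO and have 3 libraries. The sample labels put the DMSO at 0.1% whereas the design text of the series puts it at 2%, which was not settled, and the labels give no DMSO content for the treated cells. All cells grew in L-15 medium with 10% serum. The labels put all libraries in batch D, but their sample codes differ in form between vehicle and treated cells. Any handling that goes with these codes cannot be told apart from treatment. Nothing says that the libraries came from separate cultures, so p-values speak only of the scatter among these libraries, which may be technical.

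Actin assembles into filaments that carry force when myosin II, a motor of heavy and light chains, pulls on them. Tropomyosins, calponins and caldesmon lie along the filament, filamins and alpha-actinins tie filaments together, and talin, vinculin and zyxin link their ends to the matrix at focal adhesions. Many of these genes are known targets of serum response factor (SRF), a transcription factor that binds the CArG box and is switched on by the coactivator MRTFA when the pool of free actin monomer shrinks. Astrocytes use actin filaments to shape their processes, and astrocytoma cells use them to migrate.

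Most of the 40 genes were lower in the treated cells at every dose of both extracts. Levels are given in CPM, the usual unit of a gene's count relative to the total of its library, here after TMM scaling of the totals. In 33 of 40 genes every treated library lay below every vehicle library, and in 0 of 40 every treated library lay above; among all 18310 genes tested, 13.7% lay below in that way and 12.4% above. Of genes with a mean of at least 50 CPM 30.3% lay below, and of those that also have a GC content of at least 50%, 52.3% did. The 40 genes together held 3.35%, 3.30% and 3.19% of all counts under Poria at 20, 100 and 500 µg/mL, and 3.51%, 3.27% and 3.14% under Atractylodis, against 3.89%, 3.88% and 3.85% in vehicle. In bulk RNA, fewer cells of a type and less RNA per cell cannot be told apart.

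**Figure D1:**
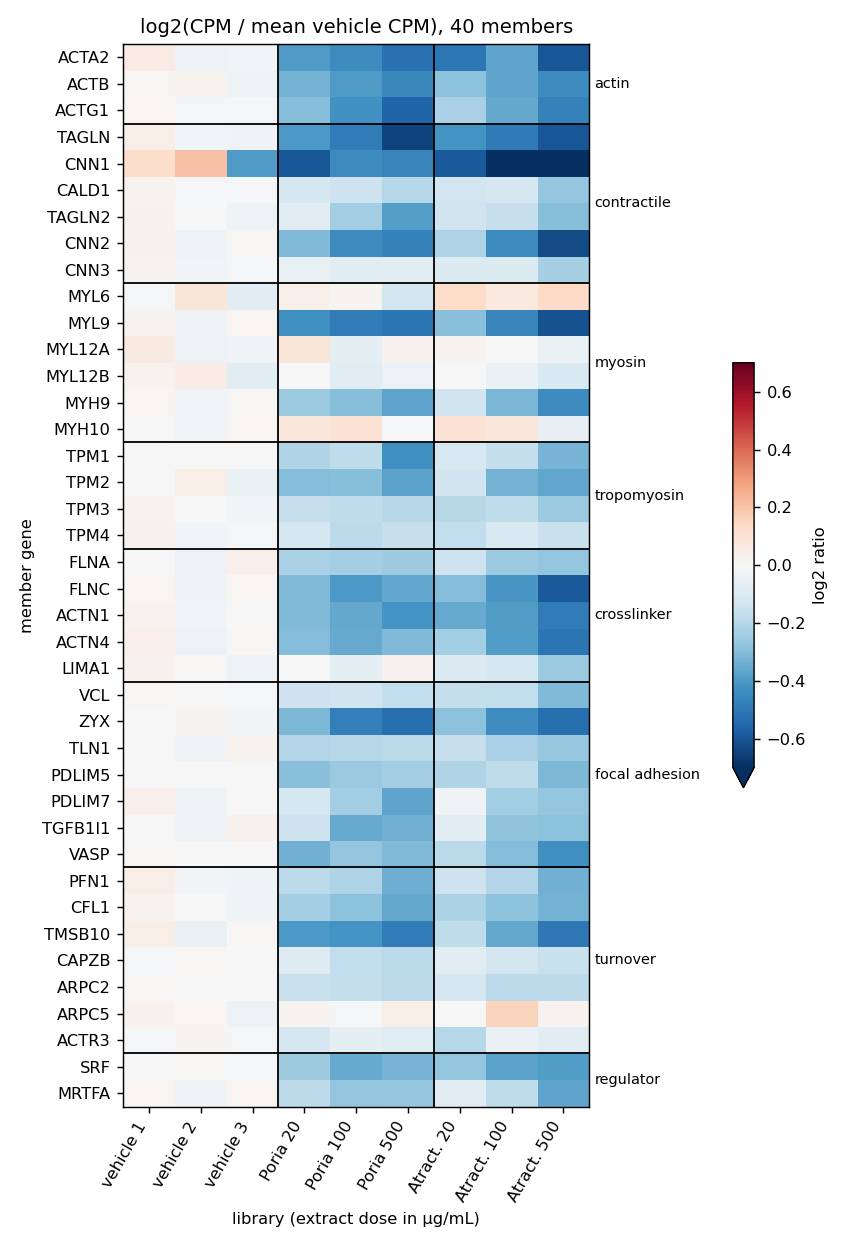
Colours give the log2 ratio of each library's CPM to the mean CPM of the 3 vehicle libraries, for the 40 genes (rows, grouped by role) in 9 libraries (columns, doses in µg/mL); values of CNN1 under Atractylodis at 100 and 500 µg/mL lie past the end of the scale and have its darkest blue. The 6 treated columns are blue in most rows, and the rows of MYL6, MYL12A, MYL12B, MYH10 and ARPC5 stay near white or turn red.

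The change was tested as a slope per extract, the log2 change in CPM per dose step over vehicle, 20, 100 and 500 µg/mL, with its standard error (SE) from a fit of all 9 libraries. A gene was called at a p under 0.05 after Benjamini-Hochberg adjustment over the 18310 genes, by edgeR's quasi-likelihood test. Under Poria 31 of 40 genes fell and 0 rose, with a median slope of -0.11, against 11.7% of all genes called lower, 9.19% called higher and a median of 0.00. Under Atractylodis 33 of 40 fell and 0 rose, with a median slope of -0.10, against 10.6% called lower, 8.54% called higher and a median of 0.00. At an unadjusted p under 0.05, 0 genes were higher in either trend, and DESeq2 also called 0 higher. Both slopes use the same vehicle libraries. With all 6 treated libraries set against the 3 vehicle libraries, 32 of 40 genes fell and 0 rose, with a median log2 change of -0.23, against 13.3% of all genes called lower, 12% called higher and a median of 0.01.

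**Figure D2:**
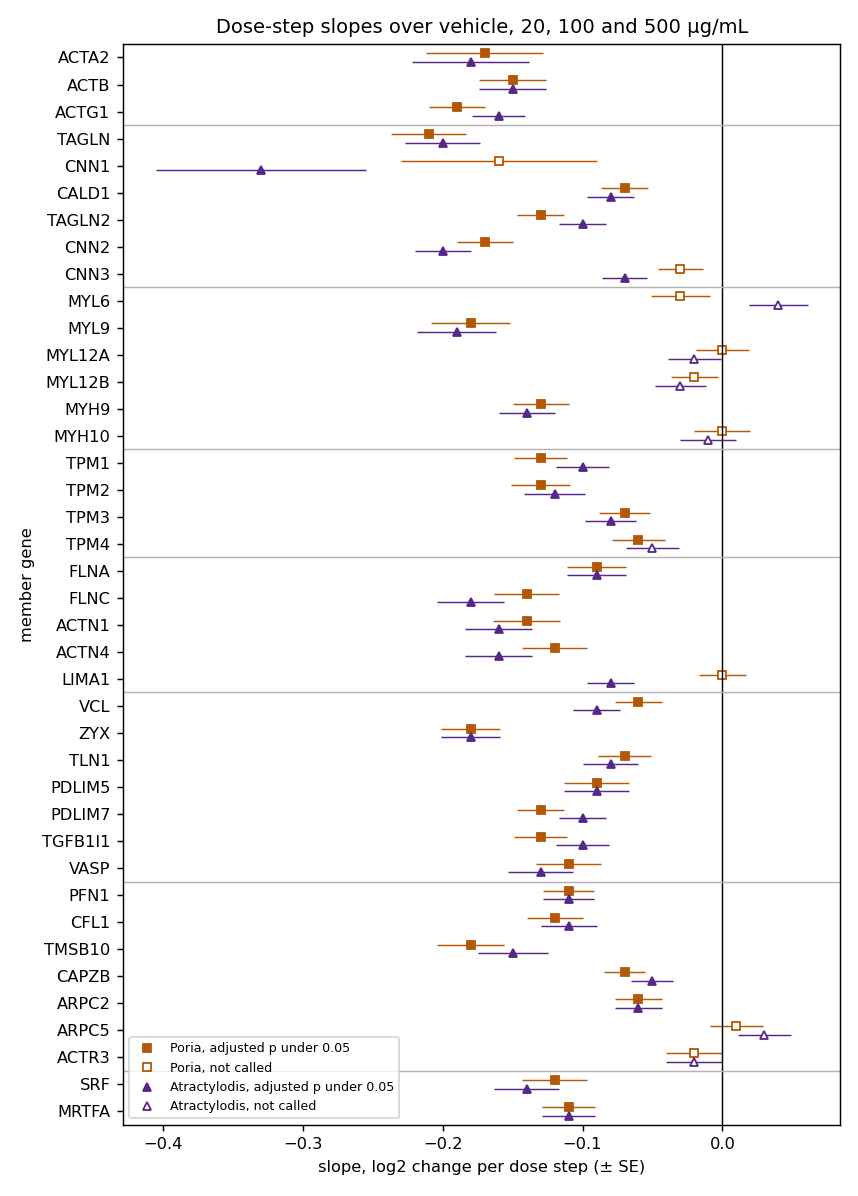
Points give the slope per dose step (log2 CPM) of each of the 40 genes with its SE, squares for Poria and triangles for Atractylodis, filled where the adjusted p was under 0.05. Nearly all points lie left of 0; MYL6, MYL12A, MYL12B, MYH10, ARPC5 and ACTR3 have open symbols for both extracts.

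The scaling and the dose scale bear on these counts. With library totals in place of TMM scaling, 24 genes fell under Poria and 31 under Atractylodis, while the split of all genes turned to 3175 higher and 1107 lower under Poria and 2689 higher and 1074 lower under Atractylodis, against 1683 and 2135 and 1563 and 1937 with TMM scaling. The 7 Poria calls lost with library totals were those of CALD1, TPM3, TPM4, VCL, TLN1, CAPZB and ARPC2, and the Atractylodis calls lost were those of CAPZB and ARPC2. With the dose in µg/mL in place of the dose step, 0 genes were called for either extract (18 for Poria and 21 for Atractylodis were lower at an unadjusted p under 0.05), and without the Atractylodis library at 500 µg/mL 17 genes fell under Atractylodis. The 16 calls lost there were those of ACTA2, CALD1, TAGLN2, CNN3, TPM1, TPM3, FLNA, LIMA1, VCL, TLN1, PDLIM5, VASP, PFN1, CAPZB, ARPC2 and MRTFA.

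Both regulators fell under both extracts. SRF (ENSG00000112658, chr6:43171299-43181507, plus strand) stood at 70.8, 65.9 and 67.3 CPM under Poria at 20, 100 and 500 µg/mL, at 69.6, 65.0 and 64.2 CPM under Atractylodis at the same doses, and at 84.3, 84.8 and 83.6 CPM in vehicle. All treated libraries lay below vehicle, and the 3 vehicle libraries lay close together. Its slopes were -0.12 ± 0.023 under Poria (adjusted p = 0.0019) and -0.14 ± 0.023 under Atractylodis (adjusted p = 0.0011). MRTFA, the coactivator that senses free actin, had 67.6, 63.2 and 63.5 CPM under Poria, 72.9, 67.8 and 59.3 CPM under Atractylodis and 77.3, 75.0 and 77.5 CPM in vehicle. Its level under Atractylodis at 20 µg/mL came closest to vehicle without reaching it. Its slopes were -0.11 ± 0.019 under Poria (adjusted p = 0.00093) and -0.11 ± 0.019 under Atractylodis (adjusted p = 0.0016). Exons of SGSM3 overlap MRTFA on the opposite strand, and the counts of SGSM3 amount to 42.1% of those of MRTFA, so reads of the pair may have been mixed if strand was not used in counting. MRTFB, a relative of MRTFA, and MYOCD, the myocardin of smooth muscle, are no members but are also coactivators of SRF. MRTFB rose by 0.07 per step under Poria (adjusted p = 0.017) and by 0.06 under Atractylodis (adjusted p = 0.042), and MYOCD averaged 1.56 CPM in vehicle with slopes of 0.05 (adjusted p = 0.64) and -0.11 (adjusted p = 0.29).

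Promoter sequence was at hand for 37 of the 40 genes, from RefSeq (GRCh38.p14), as windows of 250 bases before and 50 after the annotated start. Only 1 annotated start per gene was used, so sequence at other starts or further away was not searched. The CArG box, the site that SRF is known to bind, was searched on both strands. It was present in 5 of these 37 windows (13.5%), against 1.08% of 12247 windows of genes tested and 1.29% of all 27195 windows. Many of the 40 genes are known SRF targets and SRF is one of them, so a higher share goes with the choice of genes. It is no result of these libraries. The 250 bases before the start of those 5 genes are shown 5′ to 3′ along the gene, with each CArG box in capitals, because they are the genes whose windows hold the letters read by the regulator described here. They lie at chr19:1026358-1026607 (plus strand), chr17:81512800-81513049 (minus strand), chr19:16067288-16067537 (plus strand), chrX:154374635-154374884 (minus strand) and chr6:43171019-43171268 (plus strand).
CNN2: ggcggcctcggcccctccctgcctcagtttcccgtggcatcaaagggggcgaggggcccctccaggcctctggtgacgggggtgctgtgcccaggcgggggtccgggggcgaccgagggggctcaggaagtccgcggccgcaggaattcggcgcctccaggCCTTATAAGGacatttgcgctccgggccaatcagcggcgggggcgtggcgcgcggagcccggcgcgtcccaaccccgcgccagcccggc
ACTG1: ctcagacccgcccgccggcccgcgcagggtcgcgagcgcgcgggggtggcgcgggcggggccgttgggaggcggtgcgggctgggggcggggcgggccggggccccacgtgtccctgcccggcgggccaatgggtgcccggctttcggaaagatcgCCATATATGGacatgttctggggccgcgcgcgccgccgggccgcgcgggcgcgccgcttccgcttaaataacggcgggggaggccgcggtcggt
TPM4: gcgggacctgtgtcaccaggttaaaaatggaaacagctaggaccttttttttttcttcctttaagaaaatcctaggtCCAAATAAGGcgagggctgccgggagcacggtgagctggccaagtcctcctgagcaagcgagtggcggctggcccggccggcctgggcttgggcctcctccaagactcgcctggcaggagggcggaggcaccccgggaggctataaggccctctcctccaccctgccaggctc
FLNA: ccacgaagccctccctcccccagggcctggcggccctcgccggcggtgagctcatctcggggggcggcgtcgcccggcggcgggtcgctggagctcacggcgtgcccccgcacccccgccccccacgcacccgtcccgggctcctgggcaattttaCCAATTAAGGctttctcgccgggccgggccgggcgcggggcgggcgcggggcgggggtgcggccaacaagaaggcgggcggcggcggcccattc
SRF: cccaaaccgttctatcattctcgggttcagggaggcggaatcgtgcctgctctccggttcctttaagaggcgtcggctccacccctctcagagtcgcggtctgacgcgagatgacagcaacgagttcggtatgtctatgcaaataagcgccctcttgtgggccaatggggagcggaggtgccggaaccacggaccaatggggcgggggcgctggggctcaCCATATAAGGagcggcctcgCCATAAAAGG
The box begins 89 bases before the start in CNN2, 94 in ACTG1, 173 in TPM4 and 94 in FLNA, and SRF itself has 2 boxes, 30 and 10 bases before its start. All 5 genes fell under Poria, and CNN2, ACTG1, FLNA and SRF fell under Atractylodis as well. Over all 40 genes, with or without a box, 77.5% fell under Poria and 82.5% under Atractylodis. Such a match describes letters in a window, not bound SRF. Of the other motifs searched on both strands, GGGCGG was in 94.6% of the 37 windows, against 67.7% of windows of genes tested and 44.7% of all windows. GGAATG was in 18.9%, against 11.1% and 14%, and TATAAA in 2.7%, against 6.25% and 12%.

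All 3 actins fell under both extracts. ACTB, cytoplasmic beta actin (ENSG00000075624, chr7:5527147-5563784, minus strand), had 7958, 7596 and 7315 CPM under Poria at 20, 100 and 500 µg/mL, 8199.7, 7734 and 7369 CPM under Atractylodis and 10080.3, 10181 and 9758 CPM in vehicle. ACTG1, cytoplasmic gamma actin (ENSG00000184009, chr17:81509971-81523847, minus strand), had 3605, 3301 and 2997 CPM under Poria, 3784, 3451 and 3190.4 CPM under Atractylodis and 4473, 4398 and 4401 CPM in vehicle. In both genes the level fell at each further dose of each extract, and no treated library reached the vehicle range. The slopes of ACTB were -0.15 ± 0.024 under Poria (adjusted p = 0.00046) and -0.15 ± 0.024 under Atractylodis (adjusted p = 0.00096). Those of ACTG1 were -0.19 ± 0.020 under Poria (adjusted p = 1.8e-05) and -0.16 ± 0.019 under Atractylodis (adjusted p = 0.00018). At 500 µg/mL, ACTB was 26.9% below the vehicle mean under Poria and 26.4% below under Atractylodis, and ACTG1 was 32.3% and 27.9% below. ACTB had the highest vehicle level of the 40 genes per length of the longest annotated transcript, at 4457 CPM per kb. It was also first by the median transcript length, while the order after it depended on the length used.

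ACTA2, the smooth muscle alpha actin that myofibroblasts also make (ENSG00000107796, chr10:88935074-88991339, minus strand), had 105, 102 and 96.6 CPM under Poria at 20, 100 and 500 µg/mL, 97.8, 108 and 91.7 CPM under Atractylodis and 144, 135 and 137 CPM in vehicle. The groups did not overlap, but the doses of Atractylodis were out of order, with the highest of the 3 levels at 100 µg/mL. Over all 6 treated libraries its log2 change was -0.47 ± 0.045 (adjusted p = 3e-06). Its slopes were -0.17 ± 0.042 under Poria (adjusted p = 0.024) and -0.18 ± 0.042 under Atractylodis (adjusted p = 0.021). The call under Poria was lost once GC content and transcript length were corrected for (slope -0.14 ± 0.043, adjusted p = 0.069) and without any 1 of 4 libraries. Those 4 were vehicle 2, vehicle 3 and Poria at 100 and at 500 µg/mL, with adjusted p between 0.062 and 0.1. The call under Atractylodis was lost without vehicle 2, vehicle 3 or Atractylodis at 500 µg/mL. Exons of FAS and of an antisense RNA overlap ACTA2 on the opposite strand, with counts that amount to 20% of its own.

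**Figure D3:**
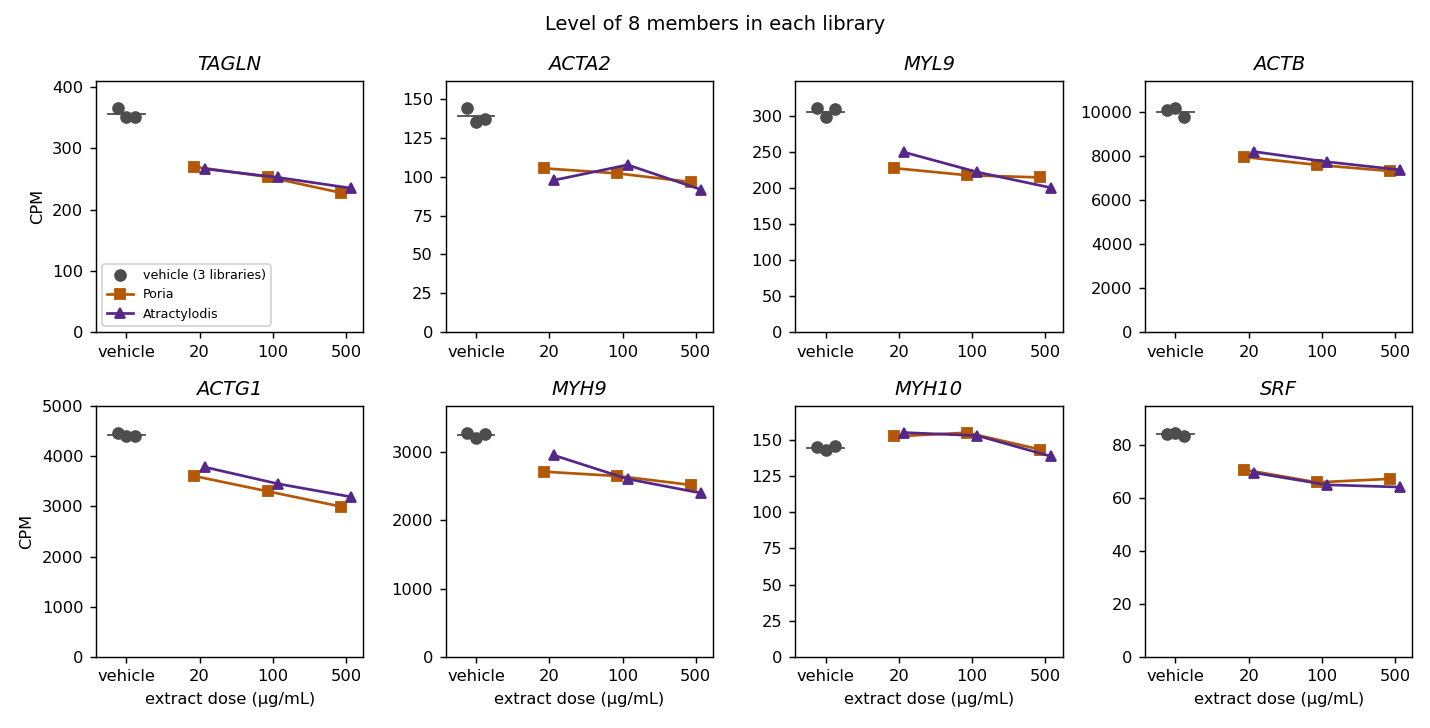
CPM of 8 genes in each library, with vehicle (3 points and their mean as a line) at the left and doses of 20, 100 and 500 µg/mL to the right, 1 library per point. In 7 panels the treated points lie below the vehicle points; in the panel of MYH10 they lie around them.

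Among the genes that bind actin in contractile cells, 4 of 6 fell under Poria and 6 of 6 under Atractylodis. TAGLN, transgelin, a calponin relative of smooth muscle and myofibroblasts, had 270.1, 254 and 228 CPM under Poria at 20, 100 and 500 µg/mL, 267, 253 and 235 CPM under Atractylodis and 366, 352 and 351 CPM in vehicle. The extracts gave nearly the same levels at each dose. Its log2 change over all treated libraries was -0.51 ± 0.048 (adjusted p = 3.3e-06), the largest of the 40 genes apart from that of CNN1, and exons of PCSK7 overlap it on the opposite strand, with counts that amount to 33.6% of its own. CNN2, the broadly expressed calponin, had 231, 210.4 and 206 CPM under Poria, 246, 210.0 and 185 CPM under Atractylodis and 292, 279 and 288 CPM in vehicle. Its slopes were -0.17 ± 0.020 under Poria (adjusted p = 5.3e-05) and -0.20 ± 0.020 under Atractylodis (adjusted p = 3.4e-05), with the lowest level at 500 µg/mL of Atractylodis.

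CNN1, the calponin of smooth muscle, was the least abundant of the 40 genes, with 104 to 212 counts in a library. Its levels were 3.06, 3.40 and 3.34 CPM under Poria, 3.07, 2.43 and 2.39 CPM under Atractylodis and 5.02, 5.32 and 3.51 CPM in vehicle. The third vehicle library came close to the treated ones, and the vehicle coefficient of variation was 21.1%, against at most 5.6% in the other 39 genes. Its slope was -0.16 ± 0.070 under Poria (adjusted p = 0.13), which missed the threshold, and -0.33 ± 0.075 under Atractylodis (adjusted p = 0.0078). CALD1, caldesmon, which binds both actin and tropomyosin, spanned 480.3 to 534 CPM in treated cells and 573 to 589 CPM in vehicle. It fell by less, with slopes of -0.07 ± 0.017 under Poria (adjusted p = 0.011) and -0.08 ± 0.017 under Atractylodis (adjusted p = 0.005), and its Poria call was lost without Poria at 500 µg/mL. TAGLN2, the broadly expressed relative of TAGLN, spanned 575 to 711 CPM in treated cells and 734 to 766 CPM in vehicle, with no overlap. It had slopes of -0.13 ± 0.017 under Poria (adjusted p = 0.00016) and -0.10 ± 0.017 under Atractylodis (adjusted p = 0.0011). Its call in treated against vehicle cells (log2 change -0.21) was lost with the correction for GC content and length (-0.13 ± 0.049, adjusted p = 0.067). CNN3, another calponin, spanned 315 to 357 CPM in treated cells and 365 to 377 CPM in vehicle. It had slopes of -0.03 ± 0.016 (adjusted p = 0.24) and -0.07 ± 0.016 (adjusted p = 0.0075), so its call was under Atractylodis. In treated against vehicle cells CNN3 was not called (log2 change -0.10), but it was with the correction for GC content and length (-0.12 ± 0.038, adjusted p = 0.035).

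The myosin II chains divided. The heavy chain of non-muscle myosin IIA and the regulatory light chain MYL9 fell under both extracts, while 4 of 6 chains did not pass in either trend. MYL9 (ENSG00000101335, chr20:36541484-36551447, plus strand), whose phosphorylation activates the motor, had 227, 218 and 215 CPM under Poria at 20, 100 and 500 µg/mL, 249, 222 and 200.4 CPM under Atractylodis and 311, 298 and 309 CPM in vehicle. All 6 treated libraries lay below vehicle, and its slopes were -0.18 ± 0.028 under Poria (adjusted p = 0.00077) and -0.19 ± 0.028 under Atractylodis (adjusted p = 0.00094). MYL12A and MYL12B, the other regulatory light chains of non-muscle myosin, overlapped between the groups. MYL12A spanned 158 to 175 CPM in treated cells and 160.2 to 172 CPM in vehicle, and MYL12B spanned 219.9 to 237 CPM and 224 to 246 CPM. Their slopes lay between -0.03 and -0.00, with adjusted p between 0.21 and 0.96.

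MYH9, MYH10 and MYL6 are described by library because of their values, not by rule. MYH9, the heavy chain of myosin IIA, had 2711, 2648 and 2517 CPM under Poria, 2949, 2604 and 2398 CPM under Atractylodis and 3284, 3203 and 3265 CPM in vehicle. MYH10, the heavy chain of myosin IIB, had 153, 155 and 143 CPM under Poria, 155, 153 and 139 CPM under Atractylodis and 145, 143 and 146 CPM in vehicle. MYH9 did not overlap between treated and vehicle cells, whereas MYH10 lay above vehicle at 20 and 100 µg/mL of both extracts, within it at 500 µg/mL of Poria and below it at 500 µg/mL of Atractylodis. The slopes of MYH9 were -0.13 ± 0.020 under Poria (adjusted p = 0.00034) and -0.14 ± 0.020 under Atractylodis (adjusted p = 0.00038), and those of MYH10 were 0.00 ± 0.020 under Poria (adjusted p = 0.99) and -0.01 ± 0.020 under Atractylodis (adjusted p = 0.78). With library totals in place of TMM scaling, MYH10 was called higher in treated cells (log2 change 0.12, adjusted p = 0.033). Exons of NDEL1 overlap MYH10 on the opposite strand, with counts that amount to 48.1% of its own. MYL6, the essential light chain, had 531, 524 and 473 CPM under Poria, 565, 542 and 569.9 CPM under Atractylodis and 512, 548 and 491 CPM in vehicle. Its lowest level was under Poria at 500 µg/mL and its highest under Atractylodis at 500 µg/mL. The slopes of MYL6 were -0.03 ± 0.021 under Poria (adjusted p = 0.28) and 0.04 ± 0.021 under Atractylodis (adjusted p = 0.23). Exons of MYL6B overlap MYL6 on the same strand. Those of SMARCC2 and of an antisense RNA overlap it on the opposite strand, with counts that amount to 15.2% of its own.

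The tropomyosins, coiled-coil strands that cover the filament, fell under Poria in 4 of 4 genes and under Atractylodis in 3 of 4. TPM1, tropomyosin alpha-1, had 743, 759 and 639 CPM under Poria at 20, 100 and 500 µg/mL, 795, 765 and 687 CPM under Atractylodis and 859, 858 and 862 CPM in vehicle. TPM2, tropomyosin beta, had 528, 529 and 502 CPM under Poria, 591, 518 and 506 CPM under Atractylodis and 651, 672 and 629 CPM in vehicle. Neither gene overlapped between treated and vehicle cells, and TPM1 had the least vehicle scatter of the 40 genes, with a coefficient of variation of 0.228%. The slopes of TPM1 were -0.13 ± 0.019 under Poria (adjusted p = 0.00024) and -0.10 ± 0.019 under Atractylodis (adjusted p = 0.0021), and those of TPM2 were -0.13 ± 0.021 under Poria (adjusted p = 0.00058) and -0.12 ± 0.022 under Atractylodis (adjusted p = 0.0014). TPM3 spanned 422 to 452 CPM in treated cells and 498 to 513 CPM in vehicle. TPM4 spanned 1025 to 1079 CPM in treated cells and 1149 to 1186 CPM in vehicle. Both lay below vehicle throughout but fell by less, with slopes of -0.07 and -0.06 under Poria (adjusted p = 0.016 and 0.045). Under Atractylodis TPM3 had a slope of -0.08 ± 0.018 (adjusted p = 0.0059) and TPM4 one of -0.05 ± 0.019, which did not pass (adjusted p = 0.088). The Poria call of TPM4 was lost without any 1 of the 3 vehicle libraries, without Poria at 100 or 500 µg/mL, or without Atractylodis at 100 µg/mL. That of TPM3 was lost without vehicle 1, vehicle 2 or Poria at 100 µg/mL. The table counts genes, so the muscle and non-muscle isoforms that these genes encode were not separated.

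Of the crosslinkers, 4 of 5 fell under Poria and 5 of 5 under Atractylodis. FLNA, filamin A, had 3882, 3856 and 3822 CPM under Poria at 20, 100 and 500 µg/mL, 4102, 3789.8 and 3747 CPM under Atractylodis and 4546, 4413 and 4658 CPM in vehicle. FLNC, the filamin best known from muscle, had 821, 769.5 and 790.0 CPM under Poria, 824, 766 and 678 CPM under Atractylodis and 1028, 998 and 1028 CPM in vehicle. Both lay below vehicle in every treated library, and FLNC at 500 µg/mL of Atractylodis stood below its other treated levels. The slopes of FLNA were -0.09 ± 0.021 under Poria (adjusted p = 0.0069) and -0.09 ± 0.021 under Atractylodis (adjusted p = 0.0065), and those of FLNC were -0.14 ± 0.023 under Poria (adjusted p = 0.00092) and -0.18 ± 0.024 under Atractylodis (adjusted p = 0.00024). ACTN1 and ACTN4, alpha-actinins that bundle filaments, spanned 797 to 902 CPM in treated cells and 1102 to 1136 CPM in vehicle (ACTN1) and 1169 to 1415 CPM in treated cells and 1619.8 to 1705 CPM in vehicle (ACTN4). They did not overlap with vehicle and fell under both extracts, by 0.14 (ACTN1) and 0.12 (ACTN4) per step under Poria (adjusted p = 0.001 and 0.0021). Under Atractylodis both fell by 0.16 per step (adjusted p = 0.00063 and 0.00045). LIMA1, the bundling protein EPLIN, is described by library because of its values. It had 229, 219 and 233 CPM under Poria, 213, 209.6 and 191 CPM under Atractylodis and 233, 229.8 and 222 CPM in vehicle, so Poria overlapped vehicle and Atractylodis lay below it. Its slopes were 0.00 ± 0.017 under Poria (adjusted p = 1) and -0.08 ± 0.017 under Atractylodis (adjusted p = 0.0046).

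All 7 focal adhesion genes fell under both extracts. ZYX, zyxin, a LIM protein that gathers at adhesions under tension, had 411, 366 and 354 CPM under Poria at 20, 100 and 500 µg/mL, 419, 378 and 354 CPM under Atractylodis and 511, 516 and 504 CPM in vehicle. VCL, vinculin, which ties talin to actin, had 374, 375 and 366 CPM under Poria, 367, 367 and 333 CPM under Atractylodis and 415, 412 and 411 CPM in vehicle. Neither overlapped between the groups, and ZYX moved further. The slopes of ZYX were -0.18 ± 0.021 under Poria (adjusted p = 4.4e-05) and -0.18 ± 0.021 under Atractylodis (adjusted p = 0.00011), and those of VCL were -0.06 ± 0.017 under Poria (adjusted p = 0.023) and -0.09 ± 0.017 under Atractylodis (adjusted p = 0.0018). The Poria call of VCL was lost without any 1 of the 3 vehicle libraries or without Poria at 100 or 500 µg/mL. TLN1, talin, which couples integrins to actin, spanned 650.0 to 699 CPM in treated cells and 768 to 793 CPM in vehicle. It had slopes of -0.07 ± 0.019 under Poria (adjusted p = 0.019) and -0.08 ± 0.020 under Atractylodis (adjusted p = 0.0066), and its Poria call was lost with the correction for GC content (adjusted p = 0.071) and without vehicle 1, vehicle 3 or Poria at 100 µg/mL. VASP, which lengthens filaments, PDLIM5 and PDLIM7, PDZ and LIM adaptors, and TGFB1I1, the paxillin relative Hic-5, had slopes from -0.13 to -0.09 under both extracts, with adjusted p between 0.00015 and 0.016. The Atractylodis call of PDLIM5 was also lost without any 1 of the 3 vehicle libraries. VASP spanned 73.8 to 87.1 CPM in treated cells and 99.0 to 100.0 CPM in vehicle, PDLIM5 94.2 to 104 CPM in treated cells and 117 to 118 CPM in vehicle and TGFB1I1 67.5 to 81.9 CPM in treated cells and 84.3 to 87.9 CPM in vehicle. PDLIM7 was the exception in overlap, since its level under Atractylodis at 20 µg/mL (219 CPM) lay within the vehicle range of 217 to 228 CPM. Its call in treated against vehicle cells (log2 change -0.21) was lost with the correction for GC content and length (adjusted p = 0.096). It was also lost with library totals and without vehicle 1 or vehicle 3.

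Of the genes of filament turnover, 5 of 7 fell under each extract. TMSB10, thymosin beta 10, which holds actin monomers, had 910.0, 899 and 854 CPM under Poria at 20, 100 and 500 µg/mL, 1060.5, 938 and 849 CPM under Atractylodis and 1238, 1158 and 1207 CPM in vehicle. No treated library reached vehicle, and its slopes were -0.18 ± 0.024 under Poria (adjusted p = 0.00025) and -0.15 ± 0.025 under Atractylodis (adjusted p = 0.00093). PFN1, profilin, which feeds monomers to growing ends, and CFL1, cofilin, which severs filaments, had slopes from -0.12 to -0.11 under both extracts, with adjusted p between 0.00047 and 0.0013. PFN1 spanned 843 to 966 CPM in treated cells and 1047 to 1104 CPM in vehicle, and CFL1 spanned 839 to 919.7 CPM in treated cells and 1052 to 1093 CPM in vehicle. CAPZB, a subunit of capping protein, and ARPC2, a subunit of the branching ARP2/3 complex, fell by 0.05 to 0.07 per step (adjusted p between 0.0057 and 0.025). CAPZB spanned 223 to 240.0 CPM in treated cells and 251 to 256 CPM in vehicle, and ARPC2 spanned 182 to 189.6 CPM in treated cells and 206 to 207 CPM in vehicle, so their drop was small beside that of ACTB. CAPZB did not pass with the correction for GC content (adjusted p = 0.064 under Poria and 0.14 under Atractylodis). The Atractylodis calls of CAPZB and ARPC2 were also lost without any 1 of the 3 vehicle libraries or without Atractylodis at 100 µg/mL, and the Poria call of ARPC2 without vehicle 1. The other ARP2/3 subunits did not pass: ARPC5 had slopes of 0.01 ± 0.019 under Poria (adjusted p = 0.85) and 0.03 ± 0.019 under Atractylodis (adjusted p = 0.36), and ACTR3 had -0.02 ± 0.020 under Poria (adjusted p = 0.54) and -0.02 ± 0.020 under Atractylodis (adjusted p = 0.52). ARPC5 spanned 173 to 195 CPM in treated cells and 169.9 to 179 CPM in vehicle, with overlap. ACTR3 spanned 249.9 to 277 CPM in treated cells and 284 to 291 CPM in vehicle, without overlap. In treated against vehicle cells ACTR3 was not called (log2 change -0.10), but it was with the correction for GC content and length (-0.22 ± 0.029, adjusted p = 7.2e-05). Its corrected slopes did not pass (adjusted p = 0.062 under Poria and 0.058 under Atractylodis). At a single dose, ACTR3 was lower at 20 µg/mL of Poria (log2 change -0.12, adjusted p = 0.029) and of Atractylodis (-0.20, adjusted p = 0.00052), and ARPC5 was higher at 100 µg/mL of Atractylodis (0.16, adjusted p = 0.0034).

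The drop was already present at the lowest dose of both extracts. In a fit with 1 group per extract and dose, which assumes that a lone library varies like the vehicle libraries, 30, 31 and 31 of 40 genes were lower than in vehicle under Poria at 20, 100 and 500 µg/mL. The median log2 changes were -0.21, -0.25 and -0.32. Of all genes 11.5%, 14.3% and 17.2% were called lower and 8.44%, 11.3% and 14.5% higher. Under Atractylodis 28, 34 and 34 genes were lower, with medians of -0.16, -0.23 and -0.32. Of all genes 10.1%, 13.9% and 16.6% were called lower and 7.54%, 11.4% and 14.5% higher. ARPC5 at 100 µg/mL of Atractylodis was the 1 of the 40 genes called higher. The level fell at each further dose in 20 of 40 genes under Poria and in 31 of 40 under Atractylodis, against 22.4% and 20.9% of all genes. Such an order in single libraries has no replicate check.

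A slope fitted within the treated libraries, with the step from vehicle taken out, was called for fewer genes. Under Poria it fell in 5 of 40 genes, namely TAGLN, TAGLN2, ACTG1, ZYX and PDLIM7, with a median of -0.04 and with 1.25% of all genes called lower and 1.2% higher. The slopes were -0.12 ± 0.027 for TAGLN (adjusted p = 0.013), -0.15 ± 0.027 for TAGLN2 (adjusted p = 0.0031) and -0.13 ± 0.027 for ACTG1 (adjusted p = 0.0071). Under Atractylodis it fell in 12 of 40 genes, with a median of -0.08 and with 2.54% of all genes called lower and 1.51% higher. These were CNN2, ACTG1, MYL9, MYH9, TPM2, FLNC, ACTN4, ZYX, PDLIM7, VASP, TMSB10 and MRTFA. CNN2 had the steepest of these slopes (-0.20 ± 0.027, adjusted p = 0.00019), followed by MYL9 (-0.16 ± 0.026, adjusted p = 0.0014) and TMSB10 (-0.16 ± 0.028, adjusted p = 0.0018). All 5 Poria and 12 Atractylodis genes have a GC content of at least 50%. Of genes with that GC content and at least 50 CPM, 3.99% and 12.8% were called lower. Once GC content and length were corrected for, 11 genes fell under Atractylodis, 5 of them with less GC. The calls of ACTG1, TPM2, ZYX, PDLIM7, VASP and MRTFA were lost, and VCL, LIMA1, CALD1, TPM1 and PDLIM5 were called instead. Under Poria 6 fell, with TPM1 added. The uncorrected counts rested on single libraries. Without the Poria library at 500 or at 20 µg/mL, 0 and 1 genes were called for Poria. Without the Atractylodis library at 500 or at 20 µg/mL, 2 and 0 were called for Atractylodis (6 and 22 were lower at an unadjusted p under 0.05 where 0 were called for Poria and for Atractylodis).

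The extracts differed in few of the 40 genes. The difference between the slopes, Poria minus Atractylodis, was called for LIMA1 alone (0.08 ± 0.018, adjusted p = 0.044), where 0.486% of all genes were called higher and 0.666% lower. This call was lost in 6 of 9 fits that left out 1 library, namely those of vehicle, those at the top dose and that of Atractylodis at 100 µg/mL. At 20 µg/mL TMSB10 was lower under Poria than under Atractylodis (log2 difference -0.22 ± 0.050, adjusted p = 0.025), where 0.677% of all genes were called lower and 0.399% higher. With the correction for GC content 0 genes were called there, and without vehicle 2 there were 5. At 100 µg/mL edgeR and DESeq2 both called 0 genes, and 1 gene had an unadjusted p under 0.05 in each; of all genes 0.131% were called lower and 0.164% higher. At 500 µg/mL LIMA1 (0.29 ± 0.047, adjusted p = 0.00018), FLNC (0.22 ± 0.047, adjusted p = 0.0024), ACTN4 (0.20 ± 0.049, adjusted p = 0.008), CNN3 (0.16 ± 0.046, adjusted p = 0.024) and CNN2 (0.15 ± 0.048, adjusted p = 0.038) were higher under Poria than under Atractylodis. MYL6 was lower (-0.27 ± 0.062, adjusted p = 0.014). At that dose 5.41% of all genes were called higher and 5.77% lower, so 6 of 40 is near the share of all genes, and DESeq2 called 3. Each of these comparisons rests on 1 library per extract.

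The lower level of the 40 genes went along with their GC content and their abundance. Their transcripts had a median GC content of 55.2%, against 48.2% in all genes tested, and of the 8038 genes tested with a GC content of at least 50%, 22.7% were called lower and 5.92% higher in treated against vehicle cells, with a median log2 change of -0.06. Across genes, which are not independent replicates and share the same libraries, the change between treated and vehicle cells had a Spearman correlation with GC content of -0.30 over 18169 genes and of -0.60 over the 40. Among the 1803 genes with a mean of at least 50 CPM and a GC content of at least 50%, 50.2% fell under Poria, 46.3% under Atractylodis and 54.6% in treated against vehicle cells. Of the 25 actin and contractile genes with that GC content, 23, 24 and 24 fell. Of the 15 with less, 8, 9 and 8 fell, against 9.39%, 10.6% and 12.9% of the 2663 genes of that abundance with a GC content under 50%. With each library corrected for GC content and for transcript length, 28, 32 and 31 of the 40 genes fell, against 8.57%, 8.37% and 11.8% of all genes and 26%, 25.5% and 35.1% of the abundant genes rich in GC. The part of GC content in the result was not tested beyond this correction.

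**Figure D4:**
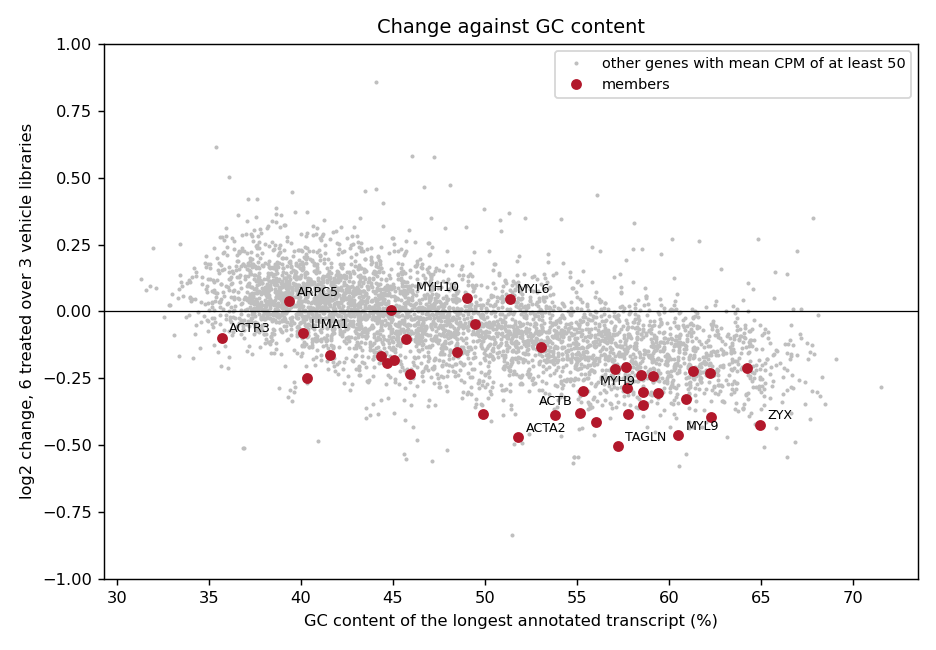
The log2 change between 6 treated and 3 vehicle libraries against the GC content of the longest annotated transcript, for 39 of the 40 genes (large points) and 4427 other genes with a mean of at least 50 CPM (small points); CNN1 lies under that level. The cloud slopes down to the right, and most large points lie in its lower part.

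Of the other genes of the actin machinery, 34.6% fell under Poria and 31.7% under Atractylodis, against 11.7% and 10.6% of all genes. Of genes with a mean of at least 50 CPM 25.9% and 25% fell, and of those also with a GC content of at least 50%, 50.2% and 46.3%. The other actin genes were not matched to these sets. The share of them that rose, 5.77% and 8.65%, was below that of all genes under Poria and near it under Atractylodis (9.19% and 8.54%). The other lists, which were chosen with results of these data known, hold 108 genes, of which 104 were tested: 36 fell and 6 rose under Poria, and 33 fell and 9 rose under Atractylodis, with a median slope of -0.03 for each. Of 24 other focal adhesion and LIM genes, 15 fell and 1 rose under Poria, and 12 fell and 0 rose under Atractylodis. BCAR1, a scaffold of adhesion signalling, fell by 0.21 per step under Poria (adjusted p = 9e-05), and CSRP1, a LIM protein and known SRF target, fell by 0.13 (adjusted p = 0.00013). Of 15 other crosslinkers and membrane linkers, 9 fell and 1 rose under Poria, and 8 fell and 1 rose under Atractylodis. FSCN1, the bundling protein of filopodia, fell by 0.18 per step under Poria (adjusted p = 6e-05), and EZR, ezrin, which ties actin to the membrane, fell by 0.16 under Atractylodis (adjusted p = 7.4e-05).

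Of 19 other ARP2/3 and nucleation genes, 4 fell (21.1%) and 2 rose (10.5%) under each extract, where the share of all genes called higher was 9.19% under Poria and 8.54% under Atractylodis. Among them were the formins FMNL2, which rose by 0.10 under Atractylodis (adjusted p = 0.0036), and INF2, which fell by 0.08 under Poria (adjusted p = 0.0059). Of 17 other turnover genes, 4 fell under Poria (23.5%) and 3 under Atractylodis (17.6%), and 2 rose under Atractylodis. Of all genes 11.7% and 10.6% fell, and of genes with a mean of at least 50 CPM 25.9% and 25%. WDR1, a cofactor of cofilin, fell by 0.11 under Atractylodis (adjusted p = 0.0009), and LIMK1, a kinase that inhibits cofilin, fell by 0.10 under Poria (adjusted p = 0.0054). Of 11 other muscle contractile genes, 1 fell and 1 rose under each extract (9.09% each way), near the shares of all genes. SMTN, smoothelin, had slopes of -0.06 under Poria (adjusted p = 0.23) and -0.19 under Atractylodis (adjusted p = 0.0069).

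**Figure D5:**
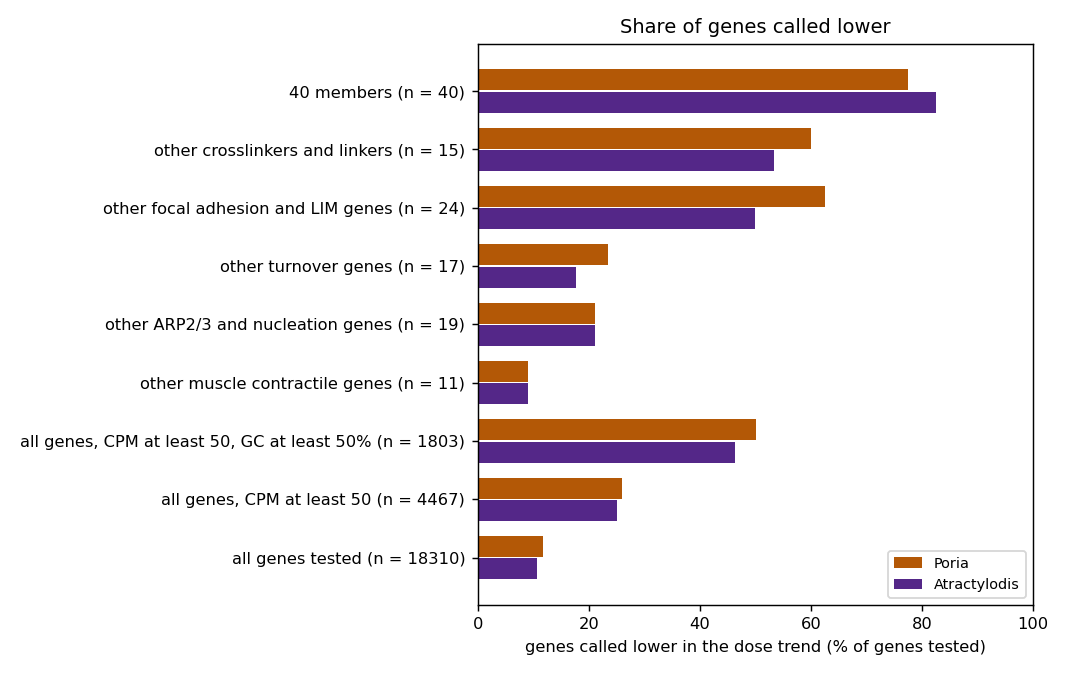
Bars give the share of genes called lower in the dose trend of each extract, as a percentage of the genes tested in each list (number in brackets). The 40 genes reach 77.5% under Poria and 82.5% under Atractylodis, and abundant genes rich in GC reach 50.2% and 46.3%.

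The libraries held 40269708 to 48905602 counts, with 5.38% to 6.97% on mitochondrial genes, and each of the 40 genes other than CNN1 had at least 2579 counts in every library. In a chi-square comparison of counts, scaled by its degrees of freedom, treated and vehicle libraries differed by 14.0 to 31.4, and pairs of vehicle libraries by 2.46 to 3.44. The Poria library of the lowest dose and the Atractylodis library of 100 µg/mL differed by 3.47, close to the vehicle pairs although extract and dose differ. The astrocyte markers GFAP, AQP4, S100B and ALDH1L1 were near 0, with vehicle means of 0.0167 to 0.108 CPM, while SOX9 stood at 83.8 and GJA1 at 256 CPM. Of the markers of smooth muscle, which makes several of the 40 genes at high level, MYH11 and DES were near 0, with 0.514 to 0.815 and 0.0199 to 0.0467 CPM in treated cells and means of 0.668 and 0.0647 CPM in vehicle. The 6 smooth muscle markers summed to 102 to 145 CPM in treated cells and 155 to 159 CPM in vehicle, most of it SMTN, and the 10 mesenchymal markers to 15547 to 17066 CPM and 18061 to 18538 CPM. Most of the mesenchymal sum is COL1A1, FN1 and VIM. Of the 10, 3 fell in treated against vehicle cells (COL1A1, VIM and THY1), against 13.3% of all genes, with a median log2 change of -0.04 over the 10. Of 7 long noncoding RNAs, listed as a sign of RNA quality, 5 were called higher in treated cells, against 12% of all genes. Their sums were 2974 to 3336 CPM in treated cells and 2253 to 2314 CPM in vehicle. Whether they mark RNA quality here was not tested. Of 13 mitochondrial mRNAs, 0 were called in treated against vehicle cells by edgeR, and 2 had an unadjusted p under 0.05. The part of these markers in the lower level of the 40 genes was not tested.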

How the data were processed

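RNA from SW1783 cells was sequenced in 100-base paired reads from a directional kit, with a RIN above 7, per the labels' protocols. The authors deposited RSEM expected counts per gene. The submitters' processing notes name FastQC 0.11.9, Trim Galore 0.6.5, STAR 2.7.3a, RSEM 1.3.3 and the hg38 build; the annotation release and the strand setting are not given in the sources used here. Of 279 columns, 270 belong to no sample used here. Expected counts were rounded to whole numbers.

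Genes were kept by filterByExpr (minimum count 10, total 15), scaled by TMM and fitted with edgeR 4.0.16 (robust quasi-likelihood; R 4.3.3, limma 3.58.1), with DESeq2 1.42.0 as an alternative. The dose trend had a common vehicle intercept and 1 slope per extract over the dose steps; other fits added an offset per extract (the slope within treated libraries), set 6 treated against 3 vehicle libraries, or gave each extract and dose a group. The trend fit had 6 residual degrees of freedom and a biological coefficient of variation of 4.97%. The SE was obtained by dividing a log2 change by the root of its F statistic. The scripts were tested on simulated data. Alternatives were RLE size factors, other filters, a spline correction for GC content and transcript length (5 degrees of freedom), dose in µg/mL, each library left out and, chosen after seeing the data, library totals alone. In the fit with a group per extract and dose, only vehicle libraries were left out.

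Symbols matched 57055 identifiers; positions, GC content and lengths came from GENCODE 29 (GRCh38). The members and all gene lists were chosen with earlier results of these data known. Values by library are given for 12 fixed genes and those among the 6 steepest called slopes per direction of either extract; others so given are named as chosen after their values were seen. TAGLN, ACTB and MYL9 have no promoter window shown, and 1 of the other gene lists is counted in their total but not reported here.

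Exons of 21 of the 40 genes overlap a gene on the opposite strand. Among those not named by their overlap above, counts of MICOS10 amount to 24.2% of those of CAPZB, and counts of AP3M1 to 16.1% of those of VCL. On the same strand, exons of MYL6B overlap MYL6, those of HMGN1P3 overlap ACTN1 and those of a further gene overlap TLN1. Of the 100-base windows along the longest transcript, 4.39% in ACTN1, 3.1% in PFN1, 2.39% in FLNC and 1.59% in TAGLN2 match another gene exactly, under 1% in TPM3, TPM4, ACTN4 and ACTB, and 0 in the rest, so the values of those 8 genes carry that uncertainty.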

Additional observations from a re-analysis of the deposited data

Results flagged for a closer look

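These differences between the extracts passed the test of the difference itself in the main analysis. The slope of LIMA1 per dose step was higher under Poria than under Atractylodis by 0.08 on the log2 scale. At 20 µg/mL TMSB10 differed by -0.22, Poria minus Atractylodis, with 910.0 CPM under Poria and 1060.5 CPM under Atractylodis. At 500 µg/mL LIMA1 differed by 0.29 (233 CPM under Poria and 191 CPM under Atractylodis) and FLNC by 0.22 (790.0 and 678 CPM). ACTN4 differed there by 0.20 (1343 CPM under Poria and 1169 CPM under Atractylodis), CNN3 by 0.16 (352 and 315 CPM) and CNN2 by 0.15 (206 and 185 CPM). MYL6 differed by -0.27, with 473 CPM under Poria at 500 µg/mL and 569.9 CPM under Atractylodis. Each single-dose difference sets 1 library against 1 library.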

How the results depend on the processing

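No paired analysis was possible because the treated libraries all carry replicate number 2 and so share fewer than 2 numbers with vehicle. The count of the 40 genes called in treated against vehicle cells was 29 to 34 under every alternative run. Of all genes, 1393 to 2826 were called lower and 1291 to 3977 higher in those runs. With dose in µg/mL, 0 of the 40 genes were called in the Poria trend, 0 in the Atractylodis trend and 0 for the slope difference. In the slopes within treated libraries, 3 were called for Poria and 5 for Atractylodis. Of all 18310 genes, 50 were called lower and 77 higher in the Poria trend on that scale, and 26 and 41 in the Atractylodis trend. The cause was not tested. With 1 library left out, calls ranged between 26 and 31 in the Poria trend and 17 and 34 in the Atractylodis trend. They ranged between 0 and 1 for the slope difference, 0 and 6 within Poria and 0 and 17 within Atractylodis. Of all genes, 1473 to 2366 were then called lower and 1067 to 1879 higher in the Poria trend. In the Atractylodis trend 633 to 2332 were called lower and 402 to 1964 higher. For Poria minus Atractylodis only vehicle libraries were left out, since each extract and dose has 1 library. There the calls ranged between 1 and 5 at 20 µg/mL, 0 and 1 at 100 µg/mL, and 6 and 9 at 500 µg/mL. Without a filter the slope difference had 2 calls. With library totals the Poria slope within treated libraries had 3. DESeq2 called 19 within Atractylodis and 3 at 500 µg/mL between extracts. Without Atractylodis at 20 µg/mL and with the correction for GC content together, 1 was called within Atractylodis, and with that correction alone 0 were called between extracts at 20 µg/mL, where 3 were higher and 3 lower at an unadjusted p under 0.05. No slope or change of the 40 genes called in the main analysis turned its sign in the trends or in treated against vehicle cells under any alternative run. CNN1 had the fewest counts of the 40 genes, 104 in its lowest library.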

Other observations

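Within families the genes kept different proportions, given as ratios of CPM by library with no test, for pairs chosen after the values were seen. MYH9 to MYH10, the heavy chains of myosin IIA and IIB, stood at 17.01 to 19 in treated cells and 22.35 to 22.61 in vehicle. MYL9 to MYL12A was 1.26 to 1.495 in treated cells and 1.80 to 1.90 in vehicle, and MYL9 to MYL12B was 0.911 to 1.06 and 1.21 to 1.38. TAGLN to TAGLN2 was 0.376 to 0.400 in treated cells and 0.466 to 0.478 in vehicle, and CNN2 to CNN3 was 0.585 to 0.709 and 0.762 to 0.783. FLNA to FLNC moved the other way, with 4.73 to 5.53 in treated cells and 4.42 to 4.53 in vehicle. The ratios of ACTB to ACTG1, ACTA2 to ACTB, ACTN1 to ACTN4, TPM1 to TPM3 and TPM2 to TPM4 overlapped between the groups.

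SMTN, smoothelin of contractile smooth muscle, had a slope within the treated libraries of 0.11 ± 0.028 under Poria (adjusted p = 0.031) and -0.19 ± 0.028 under Atractylodis (adjusted p = 0.00069, edgeR). Over vehicle and all doses the difference between its slopes did not pass (0.13 ± 0.039, adjusted p = 0.19).

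Markers of other cell types were summed in CPM, and a few genes carry each sum. Astrocyte markers summed to 301 to 354 in treated cells and 364 to 372 in vehicle, mostly GJA1 and SOX9, which fell in treated against vehicle cells (adjusted p = 0.046 and 0.0015). SLC1A3, an astrocyte glutamate transporter, rose, with 25.0 to 27.1 CPM in treated cells and a mean of 21.4 CPM in vehicle (log2 change 0.28, adjusted p = 0.00036), and the median log2 change of the 5 astrocyte markers tested was 0.21. Neuronal markers summed to 134 to 163 in treated cells and 151 to 152 in vehicle, mostly TUBB3. Epithelial markers summed to 129.7 to 232 in treated cells and 242 to 249 in vehicle, mostly KRT18, whose change over all treated libraries did not pass (adjusted p = 0.21). In edgeR's dose trend under Atractylodis, KRT18 fell by 0.29 per step (adjusted p = 0.00023) and KRT8 by 0.15 (adjusted p = 0.0027). Of the 4 epithelial markers tested, 2 fell under Atractylodis and 1 under Poria, and 0 rose under either, against 10.6% and 11.7% of all genes called lower. Myeloid markers summed to 133 to 165 in treated cells and 176 to 184 in vehicle, mostly CD68, which fell (log2 change -0.25, adjusted p = 0.008). Endothelial markers summed to 33.3 to 41.4 in treated cells and 30.3 to 32.9 in vehicle, mostly KDR, which rose (log2 change 0.21, adjusted p = 0.024).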
